A study of Mus musculus with 5 samples.

Results

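The clustered replication-dependent histone genes are the genes for the core histones H2A, H2B, H3 and H4 and the linker histone H1 that carry a Hist1, Hist2, Hist3 or Hist4 name. Members were found by these names among the genes at each interval of the deposited table, a rule that uses no read number. They took 59 of the 673 listed intervals and 60 of the 753 gene names. By class there were 3 intervals of H1 genes, 16 of H2A, 15 of H2B, 12 of H3 and 13 of H4. The large cluster on chromosome 13 held 50 of them and the smaller one on chromosome 3 held 7, whereas Hist3h2a lay on chromosome 11 and Hist4h4 on chromosome 6.

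The table came from RNA immunoprecipitation sequencing (RIP-seq) of Flag-SAMD4, in which a tagged protein is pulled down from a cell extract and the RNA that comes with it is sequenced. SAMD4 is the mammalian homolog of Drosophila SMAUG, a translational repressor that reads the bases CNGG in the loop of a short RNA hairpin. The cells were calvarial osteoblasts of mice in which a piggyBac (PB) transposon disrupts Samd4 on both alleles (Samd4PB/PB), immortalized with SV40 and made to express Flag-Samd4 from a lentivirus, so the tagged protein was the added form and not the native one, in 1 immortalized line. There were 2 libraries of RNA pulled down with anti-Flag (the IP), 2 with control IgG, and 1 input library, all from cells of this 1 genotype. The antibody field of the IgG libraries also reads Flag, with other catalogue numbers, and the titles name them IgG. The input was not analysed here. For each interval the table gives 1 number of IP reads and 1 of IgG reads, so the spread between the libraries of a group is unknown and no test across replicates could be made. Of the osteoblast markers Runx2, Sp7, Alpl, Bglap, Bglap2, Ibsp, Spp1, Col1a1, Col1a2 and Sparc, 1 of 10 was listed, Col1a1, with 3832 IP reads and 1030 IgG reads in its deepest interval. None of the markers of chondrocytes, adipocytes, macrophages and osteoclasts, endothelium or muscle was listed. A gene that is not in the list has no interval called there, which says nothing of its level in these cells.

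Replication-dependent histone genes are transcribed in S phase, when newly made DNA has to be packed into nucleosomes. Their mRNAs are mostly short and without introns, and they end a little after a conserved stem-loop instead of in a poly(A) tail. SLBP binds this stem-loop and directs the processing, export, translation and decay of the mRNA. An H2A gene and an H2B gene often lie side by side and are transcribed away from each other from a shared promoter region. Some histone genes are also known to give polyadenylated mRNA.

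Promoter sequences show this shared layout, and the classes differ in the motifs they hold. They were taken from RefSeq (GRCm38.p6), with 250 bases before and 50 bases after each start, and 56 promoters of 55 member genes were matched. The octamer ATTTGCAT, known as a binding site of OCT-1 in H2B promoters, was found on either strand of the 250 bases before the start in 12 of the 56 (21.4%), against 1.60% of all 32851 promoters in the table. It occurred in 6 of 15 H2B and 6 of 16 H2A promoters and in 0 of the 3 H1, 10 H3 and 12 H4 promoters. The octamer of the H2B genes is shown in capitals, 5′ to 3′ on the strand of the gene, since some of these windows lie in the promoter of an H2B gene and of its H2A neighbour at once.
Hist1h2bg: ttgagtcccttATTTGCATagaacctctat
Hist1h2bb: ttgagtctcttATTTGCATaaagcctttga
Hist1h2bk: catttcactttATTTGCATacgaagttcta
Hist1h2be: agtaagacttaATTTGCATaagactgccta
Hist1h2bm: ctctcgtctctATTTGCATaacagcgtgta
Hist1h2ba: gaattccccttATTTGCATgcacccagcac
The Hist1h2bg window lies at chr13:23571330-23571359 on the plus strand of GRCm38.p6, and the Hist1h2bk window at chr13:22035780-22035809. Both are also promoter sequence of the H2A gene on the other strand, Hist1h2ae and Hist1h2ah, so 1 octamer serves as a match for both genes. In 8 neighbouring pairs of an H2A and an H2B gene the promoter windows shared 252 to 279 bases, with the start sites 164 to 249 bases apart. The CCAAT box, bound by NF-Y, was found on either strand in 16 of 16 H2A, 15 of 15 H2B and 3 of 3 H1 promoters, in 8 of 10 H3 promoters and in 3 of 12 H4 promoters. Over all promoters it was present in 33.8%, and over the members in 80.4%. TATAAA, searched in the same way, was present in 42.9% of the members' promoters and in 12.4% of all promoters.

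The CNGG letters of the SMAUG loop were looked for in the first 50 transcribed bases of the same promoter entries, on the strand of the gene. They were present in 25 of 56 entries (44.6%), fewer than the 68.2% over all entries. By class they were in 10 of 16 H2A, 9 of 12 H4, 3 of 10 H3, 2 of 15 H2B and 1 of 3 H1 entries. In most of the H2A and H4 entries with a match, 1 match falls on the start of the coding sequence. There, CNGG directly followed the letters ATGT, the start codon and its next base. This held in 7 of the 16 H2A entries and 6 of the 12 H4 entries. It held in 0 entries of the other classes and in 0.234% of all entries, whose 50 bases need not hold a start codon. The match is part of the first codons, so which classes can hold it depends on the proteins they encode. Binding of SAMD4 to these letters was not tested. The pattern requires the T: in the H2B entry of Hist1h2ba, CCGG follows ATG directly, without a T between, and is not in these counts. Examples of the H2A and H4 match are shown with CNGG in capitals. The other H2B match, of Hist1h2bh and away from a start codon, is shown beside them.
Hist1h2ai: agctgagttatgtCTGGacgcggcaagcag
Hist1h2ag: atctttacaatgtCTGGacgcggcaaacag
Hist1h4d: cctagtttgctaacatgtCTGGacgcggga
Hist1h4f: tccatagccatgtCTGGtcgtggtaaggga
Hist1h4c: gtcataaccatgtCTGGacgtggtaagggt
Hist1h2bh: tttatttaaagagCAGGaaaggaacggaac
The Hist1h4d window is chr13:23581588-23581617 on the plus strand. A hairpin with CNGG and up to 3 more bases in its loop, closed by 4 or more pairs (G with U allowed), could be formed in 5 of the 56 entries (8.93%), against 16.4% of all entries. The window covers only 50 bases of each transcript, and folding energy was not computed.

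All listed intervals had more IP than IgG reads, since the list holds called intervals only, and the histone genes as a whole had more IP reads and fewer IgG reads than the typical listed interval, with large differences between their classes. The 59 intervals held 9987 IP reads and 757 IgG reads in sum. This is a ratio of 13.2, with a 95% interval of 12.3 to 14.2, which like all such intervals here covers counting error only. The reads are as deposited and are not scaled to the size of the libraries, so a ratio sets intervals apart from each other but does not give enrichment on an absolute scale. IP reads per interval ran from 23 to 621 with a median of 158, against a median of 74 over all listed intervals. IgG reads ran from 0 to 225 with a median of 1, against a median of 6. With IgG reads under 3 set to a floor of 3, the IP number was at least 10 times the IgG number in 44 of the 59 intervals (74.6%), whereas the share over all 673 listed intervals was 38.2%. No IgG read at all was counted in 18 intervals (30.5%), against 14.4% of all listed intervals. Listed intervals with at least 100 IP reads and 0 IgG reads numbered 16, and 12 of these were histone gene intervals. A higher number of IP reads also makes it easier to pass the fold rule with few IgG reads, and histone intervals were longer (median 442 bases against 309) and had more IP reads per 100 bases (median 35.3 against 18.6). In a binomial test of each interval against equal reads in IP and IgG (exact, two-sided), 59 of 59 passed after Benjamini-Hochberg adjustment, as did 100% of the listed intervals, so this test did not separate the histone genes from the rest.

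**Figure D1:**
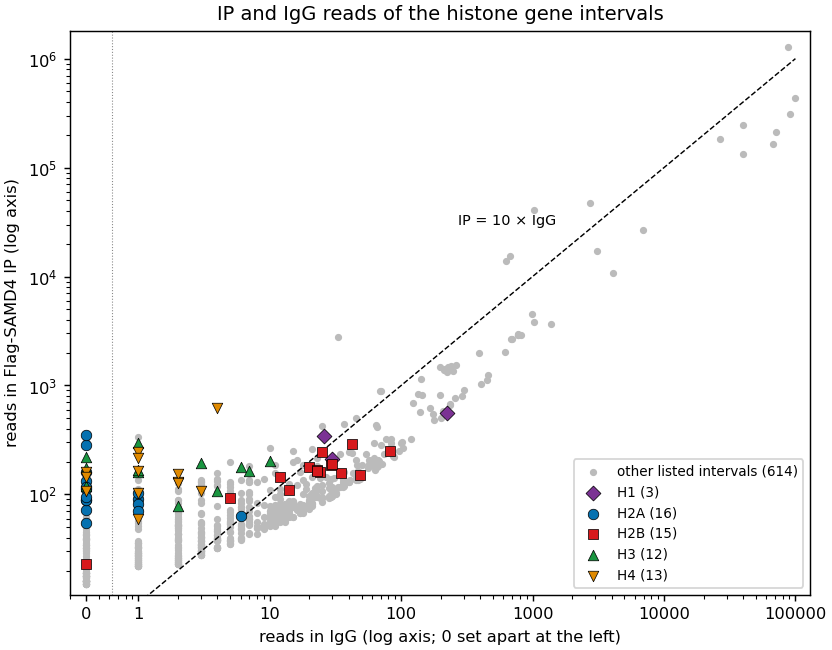
IP reads (vertical, log axis) against IgG reads (horizontal, log axis with 0 set apart at the left) of the 673 listed intervals, with the 59 histone intervals coloured by class and the other 614 in grey. The dashed line marks 10 IP reads for each IgG read. H2A, H3 and H4 intervals lie above the line, at 0 to 10 IgG reads, and most H2B intervals and 2 of the 3 H1 intervals lie below it.

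The classes differed in IgG reads, with a median of 0 per interval in H2A, 1 in H4 and 1.5 in H3 against 24 in H2B and 30 in H1, although single intervals overlapped (0 to 10 in H2A, H3 and H4, 0 to 82 in H2B). Over H2A, H3 and H4 together, 41 intervals held 6375 IP and 63 IgG reads, and 41 of 41 were past 10-fold. The 18 intervals of H2B and H1 genes held 3612 IP and 694 IgG reads, and 3 of 18 were past 10-fold, which is under the 38.2% of all listed intervals. Intervals of copies share reads and sequence and are not independent, so no test between classes was made and the values are a description. IgG reads made up 0.505% of the reads in H2A (95% Clopper-Pearson interval 0.242% to 0.927%), 0.763% in H4 (0.453% to 1.20%) and 1.67% in H3 (1.16% to 2.31%), against 14.1% in H2B (12.9% to 15.5%) and 20.3% in H1 (18.2% to 22.5%). The 95% intervals of H2A and H4 overlap, and that of H3 lay above H2A but touched that of H4. As medians of single intervals, the share was 0% in H2A, 0.64% in H4, 1.07% in H3, 12.3% in H2B and 12.5% in H1. The median over all listed intervals was 8.70%, below the H2B and H1 medians and above the others. Single intervals of H2B and H1 also lay below 8.70%, such as Hist1h1c at 7.08%. In the summed reads of the whole list, IP reads took a share of 0.852, so the summed H2B share was near that of the list.

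**Figure D2:**
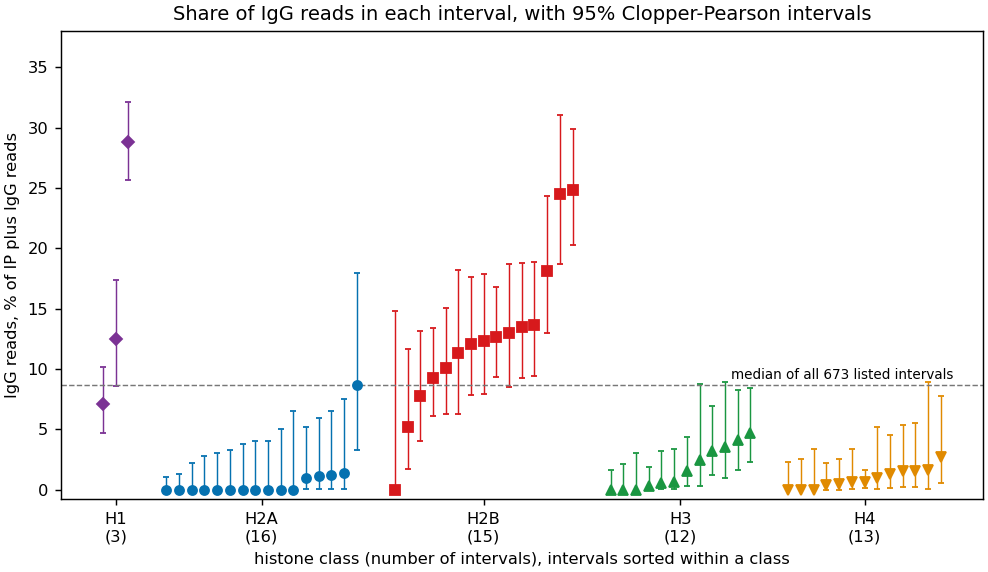
Share of IgG reads among IP plus IgG reads (vertical, in percent) for each of the 59 histone intervals, grouped by class and sorted within it, with error bars for the 95% Clopper-Pearson interval. The dashed line is the median of all 673 listed intervals, 8.70%. H2A, H3 and H4 points lie at or below this line and 13 of the 15 H2B points lie above 7%.

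The difference between classes was one of IgG reads far more than of IP reads. Per 100 bases of the interval, the median number of IP reads was 19.96 in H2A, 35.3 in H2B, 38.3 in H3, 43.9 in H4 and 46.3 in H1. The median number of IgG reads per 100 bases was 0 in H2A, 0.283 in H4, 0.386 in H3, 3.99 in H1 and 5.62 in H2B. H2A thus had the lowest level in both, and H2B and H3 had nearly the same IP level while their IgG levels lay far apart. The amount of each mRNA in the cells is unknown here, since the input was not analysed.

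**Figure D3:**
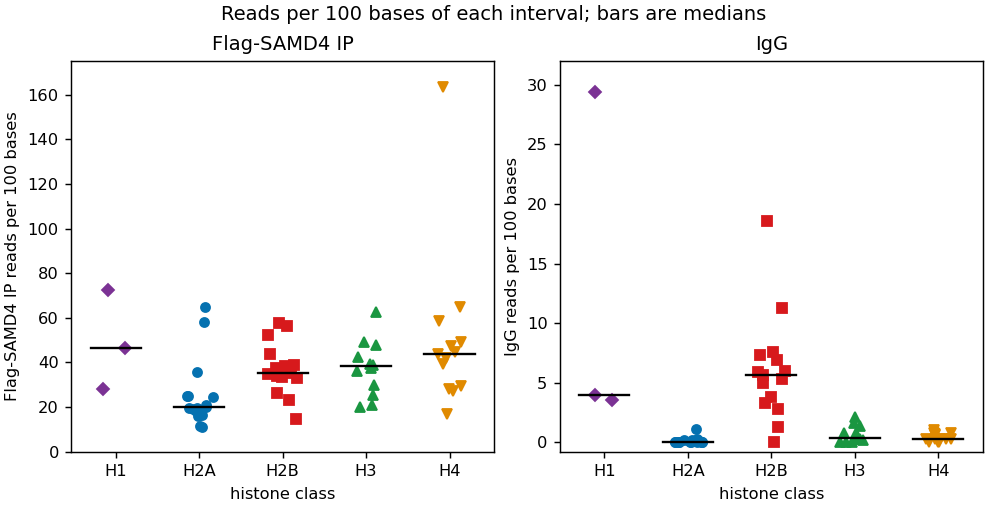
Reads per 100 bases of each histone interval in the IP (left) and the IgG (right), by class, with 1 point per interval and a bar at the class median. IP medians lie between 19.96 and 46.3, whereas IgG medians lie under 0.4 in H2A, H3 and H4 and at 3.99 and 5.62 in H1 and H2B.

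H2A pairs with H2B to form the dimers that flank the H3 and H4 tetramer in the nucleosome. In H2A, 16 of 16 intervals were past 10-fold and 11 had 0 IgG reads. The deepest were the copies Hist2h2aa1 and Hist2h2aa2 on chromosome 3, named together at 2 intervals with 354 and 283 IP reads and 0 IgG reads at each, which against the floor of 3 reads per interval is at least 118-fold and at least 94.3-fold higher in the IP. The floor is the limit that a count of 0 allows, and the two-sided 95% limits of these ratios lie lower, at 95.5 and 76.2. Every later bound from 0 IgG reads also lies above its two-sided limit. These limits include 59.1 at the further Hist2h3c1 interval, 43.1 at Hist1h4k and 84.6 at H2afx. With IgG reads scaled by the factor of 1.636 that the deposited p-values imply, the first 2 bounds would be 72.1-fold and 57.7-fold. Each bound and ratio given here would be lower by this same factor. Hist1h2ak followed with 162 IP and 0 IgG reads (at least 54.0-fold), and Hist1h2ai with 132 and 0 (at least 44.0-fold). Hist1h2ab had 118 and 0, and Hist1h2ah had 111 and 0. The copies Hist1h2ao and Hist1h2ap, also named together at 2 intervals, had 90 IP reads with 1 IgG read at one and 89 with 0 at the other. Another 7 intervals, of Hist2h2ac, Hist1h2ac, Hist1h2ae, Hist1h2ag, Hist1h2an, Hist1h2ad and Hist1h2af, held 55 to 104 IP reads and 0 or 1 IgG read. The exception was Hist3h2a on chromosome 11, away from both large clusters, with 63 reads in the IP and 6 in the IgG (ratio 10.5, 95% interval 4.56 to 29.7), the lowest ratio of the class and 6 of its 10 IgG reads. Its interval also lies on Trim17. Without it the ratio of the class, 197 (95% interval 107 to 411), was 477.

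H2B showed the opposite pattern, with IgG reads in 14 of 15 intervals. The class held 2506 reads in the IP and 413 in the IgG (ratio 6.07, 95% interval 5.47 to 6.75), and 2 of 15 intervals were past 10-fold. Hist1h2bg had the most IP reads, 289, with 42 IgG reads (ratio 6.88, 95% interval 4.97 to 9.75). Hist1h2bb had 248 and 82, the lowest ratio of the class at 3.02 (95% interval 2.35 to 3.93). Hist1h2be had 245 and 25, and Hist1h2bc had 190 and 30. The copies Hist1h2bq and Hist1h2br were named together at 2 intervals, with 179 IP and 20 IgG reads at one and 167 and 23 at the other. The highest ratio with IgG reads was that of Hist1h2bf, with 92 and 5 (ratio 18.4, 95% interval 7.61 to 58.0). Another 7 intervals held 110 to 186 IP and 12 to 49 IgG reads, and of these Hist1h2bj, at 143 and 12, was the other one past 10-fold. The interval with 49 IgG reads lies on Hist1h2bm and also names Hist1h2aj, a pseudogene in RefSeq. Hist1h2ba, the testis H2B, had 23 IP reads and 0 IgG reads over an interval of 159 bases. Its IgG share has a 95% interval of 0% to 14.8%, which holds the class median of 12.3%, so a difference from the other H2B genes was not detectable at this depth.

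Among the H2B genes, 5 intervals belong to genes for which the table also holds a spliced transcript. These had 891 IP and 112 IgG reads, an IgG share of 11.2% (95% interval 9.28% to 13.3%), and the 10 without such a transcript had 1615 and 301, a share of 15.7% (14.1% to 17.4%). These counting intervals do not overlap, and both shares lie above those of H2A, H3 and H4. As medians of single intervals the shares were closer, at 11.3% with such a transcript and 12.8% without. Hist1h2bb alone held 82 of the 301 IgG reads. Single H2B intervals with IgG reads ranged from 5.15% in Hist1h2bf to 24.8% in Hist1h2bb, both without such a transcript.

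H3 and H4 form the central tetramer of the nucleosome and carry most of the well-studied histone tail marks. In H3, 12 of 12 intervals were past 10-fold and 3 had 0 IgG reads (ratio of the class 59.0, 95% interval 42.3 to 84.9). The highest IP number was 296, with 1 IgG read, at the interval of Hist2h3c1 and Hist2h3c2 (ratio 296, 95% interval 52.7 to 11730). The further interval of Hist2h3c1 had 220 and 0 (at least 73.3-fold), Hist2h3b had 173 and 0 (at least 57.7-fold), and Hist1h3e had 120 and 0 (at least 40.0-fold). Hist1h3d, with 203 and 10, had the lowest ratio of the class (20.3, 95% interval 10.8 to 43.0), and Hist1h3c had 194 and 3. The other 6 intervals held 78 to 179 IP and 1 to 7 IgG reads. All but 1 of the 35 IgG reads of the class were thus on chromosome 13, where H3 had 1375 IP and 34 IgG reads, against 689 and 1 on chromosome 3.

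In H4, 13 of 13 intervals were past 10-fold and 3 had 0 IgG reads (ratio of the class 130, 95% interval 82.1 to 220). Hist1h4d stood out with 621 reads in the IP and 4 in the IgG (ratio 155, 95% interval 60.3 to 572), the most IP reads of all histone intervals. Per 100 bases it held 163 IP reads, whereas the class median was 43.9. The interval of Hist1h4m and Hist1h4n had 247 and 1, and the further interval of Hist1h4n had 130 and 2. Hist1h4h had 215 and 1, and Hist1h4a had 164 and 1. Hist1h4k had 161 and 0 (at least 53.7-fold), Hist1h4b had 145 and 0 (at least 48.3-fold) at an interval that also names 4930558J22Rik and AK016178, and Hist1h4j had 108 and 0 (at least 36.0-fold). Hist1h4f, Hist1h4c and Hist1h4i held 104 to 154 IP reads and 1 or 2 IgG reads. The genes away from the chromosome 13 cluster had the lowest ratios of reads as counted, without the floor, with 59 and 1 at Hist2h4 (ratio 59.0, 95% interval 10.2 to 2369) and 107 and 3 at Hist4h4 on chromosome 6 (ratio 35.7, 95% interval 11.9 to 176), although these counting intervals overlap that of the class.

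H1 binds the DNA where it enters and leaves the nucleosome. Only Hist1h1c, Hist1h1d and Hist1h1e were listed. Hist1h1e had 555 reads in the IP and 225 in the IgG (ratio 2.47, 95% interval 2.11 to 2.89), the lowest ratio of all 673 listed intervals and 225 of the 281 IgG reads of the class. Hist1h1d had 210 and 30 (ratio 7, 95% interval 4.76 to 10.6), and Hist1h1c had 341 and 26 (ratio 13.1, 95% interval 8.80 to 20.4). These 3 intervals of the ratio do not all overlap, so H1 did not behave as 1 group, and its ratio of 3.94 (95% interval 3.45 to 4.50) became 9.84 without Hist1h1e.

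Neighbouring H2A and H2B genes allow the classes to be compared at the same place in the genome. In 10 pairs the intervals lay 130 to 282 bases apart on opposite strands and pointed away from each other, all on chromosome 13. Over these pairs the H2A genes held 993 IP and 3 IgG reads, and the H2B genes 1675 and 234. IgG reads were 0 or 1 at each H2A gene and 5 to 42 at each H2B gene, so the groups did not overlap and H2B was higher in 10 of 10 pairs. Hist1h2ae had 89 IP and 0 IgG reads beside 289 and 42 at Hist1h2bg, whose octamer they share. Hist1h2ah had 111 and 0 beside 186 and 29 at Hist1h2bk, and Hist1h2ak had 162 and 0 beside 158 and 35 at Hist1h2bn. The 95% intervals of the IgG share were apart in 8 of the 10 pairs and overlapped in Hist1h2ag with Hist1h2bj and in Hist1h2ad with Hist1h2bf, where the H2B gene had 12 and 5 IgG reads. IP reads per base were higher at the H2B gene in 9 of 10 pairs, with a median of 1.70 times the value at the H2A gene (range 0.924 to 2.64), and the exception was Hist1h2bn.

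**Figure D4:**
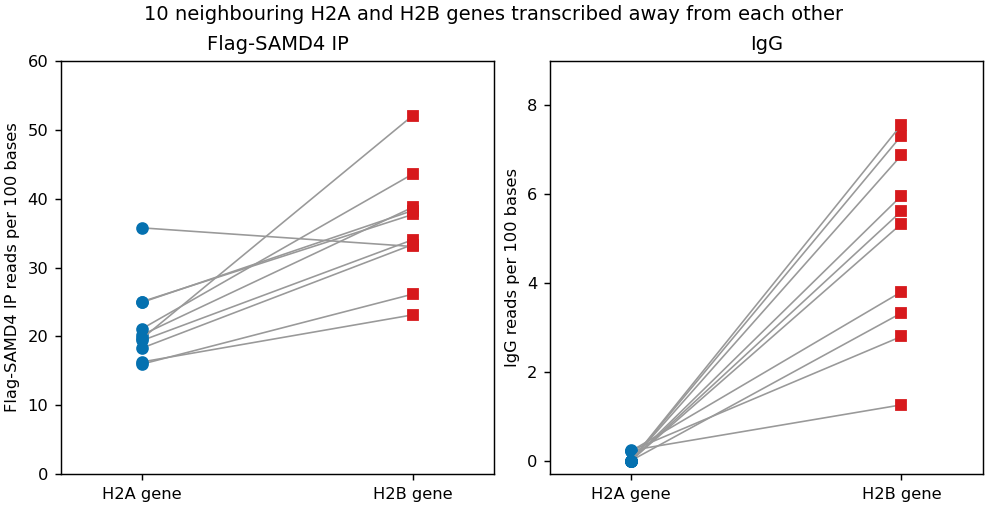
Reads per 100 bases at 10 pairs of neighbouring H2A (blue circles) and H2B (red squares) genes, in the IP (left) and in the IgG (right), with a line joining each pair. IP values overlap between both genes, whereas IgG values are near 0 at each H2A gene and higher at each H2B gene.

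The clusters differed in ratio and also in the classes they hold. On chromosome 3, the 7 intervals held 1489 reads in the IP and 3 in the IgG (ratio 496, 95% interval 170 to 2410), and 7 of 7 were past 10-fold. On chromosome 13, the 50 intervals held 8328 and 745 (ratio 11.2, 95% interval 10.4 to 12.1), and 35 of 50 were past 10-fold. All listed H2B and H1 genes lay on chromosome 13. With the class held fixed, H2A had 1166 IP and 3 IgG reads over 12 intervals on chromosome 13 (ratio 389, 95% interval 133 to 1887) and 741 and 1 over 3 intervals on chromosome 3 (ratio 741, 95% interval 133 to 29307), so no difference between the clusters was detectable for H2A. For H3, the ratio was 40.4 on chromosome 13 (95% interval 28.8 to 58.6) and 689 on chromosome 3 (95% interval 123 to 27253), which do not overlap. The value for chromosome 3 rests on 1 IgG read, Hist2h3c1 and Hist2h3c2 are copies, and the sources used here do not say how reads with several positions were counted.

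Reads of copies limit what can be said of single genes. There were 8 genes named at 2 intervals and 9 intervals with more than 1 histone name, and 5 intervals also carried the name of a gene that is no histone gene. The coding sequences of a class are highly alike, and whether reads were placed at a copy they did not come from was not tested. If each read was counted once and at a listed interval, the sums over a class do not depend on which copy it was given to. Neither is stated in the sources.

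Most of the listed intervals covered the coding sequence and little beyond it. The mm9 coding sequence could be found for all 59 intervals, and 52 intervals covered the whole of it. Their lengths ran from 159 to 765 bases, with class medians from 367 bases in H4 to 752 in H1. Intervals began a median of 25 bases before the start codon and ended a median of 31 bases after the stop codon, and 54 of 59 ran past the stop codon. The median distance past the stop codon was 25 bases in H3, 31 in H2B and H4, 33.5 in H2A and 54 in H1. Hist1h1e shows the difference to the annotation, since its longest annotated transcript goes on for 1210 bases past the stop codon and its interval for 54. At the other end of the range, the Hist2h3b interval ran 165 bases past the stop codon, which is 128 bases past the furthest annotated end. Intervals went beyond the furthest end of any annotated transcript in 9 of 59 cases, and beyond that of the RefSeq transcripts in 26, but 27 of the 59 intervals have RefSeq models that hold the coding sequence alone. Sequences downstream of the stop codon were not read here, so the position of the histone stem-loop relative to these ends is unknown.

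**Figure D5:**
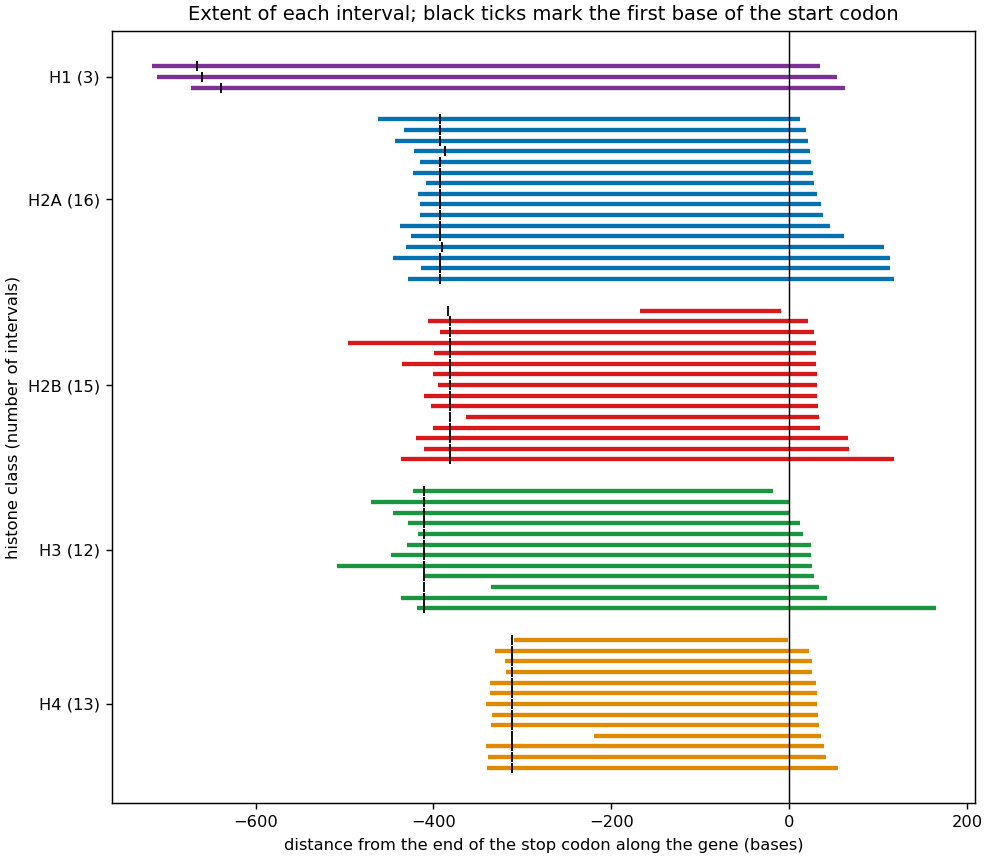
Extent of each of the 59 histone intervals along its gene (horizontal, bases from the end of the stop codon), grouped by class, with 1 line per interval and a black tick at the first base of its start codon. Most lines start shortly before the tick and end within 60 bases past the stop codon, with a median of 31.

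Of 67 protein-coding genes of these families in RefSeq, 59 were in the list. The list holds 753 gene names in all, and the share of all RefSeq genes that it names was not computed. H3 and H4 were complete, with 12 of 12 and 13 of 13. H2A lacked Hist2h2ab and Hist1h2aa (16 of 18), and H2B lacked Hist2h2be, Hist2h2bb and Hist3h2ba (15 of 18). H1 lacked Hist1h1a, Hist1h1b and Hist1h1t, the last a testis form (3 of 6).

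Other genes of histone biology and proliferation were listed in part, and the share of all genes that the list names was not computed. Of 10 histone variants, which are made outside S phase as well, 4 were in the list. H2afx, whose protein marks DNA breaks once phosphorylated, had 314 IP and 0 IgG reads (at least 105-fold), whereas the 1 interval of H2afz and H2afv, forms of H2A.Z, had 111 and 29 (ratio 3.83, 95% interval 2.52 to 5.98). H3f3b, a gene for H3.3, had 65 and 6 (ratio 10.8, 95% interval 4.72 to 30.6). Of 13 factors of histone mRNA processing and decay, Slbp alone was listed, with 18 IP and 0 IgG reads (at least 6-fold). Of 10 histone chaperones, Ssrp1, a subunit of FACT, was listed with 28 and 3. Of 14 proliferation genes, 3 were listed, namely the replicative helicase subunits Mcm2 (49 and 8) and Mcm5 (78 and 15) and the ribonucleotide reductase subunit Rrm2 (53 and 5). Of these 3, Rrm2 alone was past 10-fold.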

How the data were processed

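RIP-seq libraries of Flag-SAMD4 osteoblasts (2 IP, 2 IgG and 1 input) were sequenced by the authors, and the aligner TopHat2 2.0.9 and the build mm9 are named in the submitters' processing notes. The deposited table pairs 673 called intervals with overlapping transcripts over 16285 lines. The authors deposited 1 count of IP reads and 1 count of IgG reads for each interval, a p-value and a q-value, a ratio (fold) of IP over IgG, and the number of overlapping bases. The authors' p-value, q-value and fold columns are not reported. The p-values served only to derive the factor of 1.636 on IgG reads that they imply (it fits 550 of 559 intervals tested), used in 1 alternative. The libraries were made with Illumina's TruSeq RNA kit, without word on which version, on a poly(A) selection step or on strand. How the reads of 2 libraries became 1 number and which peak caller was used are not stated in the sources. Library totals are unknown, and the listed intervals sum to 3260616 IP and 567264 IgG reads.

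Each interval was assigned to the histone class whose gene shares most exon bases with it. The 95% intervals of ratios were derived from exact binomial (Clopper-Pearson) limits of the share of IP reads and cover counting error only. An IgG floor of 3 reads per interval was used for fold counts and for bounds. A binomial test (exact, two-sided) at an expected share of 0.5 for IP reads was adjusted over 673 intervals at 0.05, and was tested on simulated data; it compares these libraries, not conditions. Full values are given for the 4 intervals with the most IP reads in a class (all in a class of 6 or fewer), for those with 0 IgG and at least 100 IP reads, the lowest and highest ratio of a class, genes outside the clusters and genes with more than 1 interval; others named were chosen after their values were seen. Of 60 gene names, 59 matched RefSeq by transcript. The members and lists were chosen with earlier results of these data known. Python 3.11.15, SciPy 1.17.1, NumPy 2.4.6, pandas 2.3.3 and Matplotlib 3.10.9 were used.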

Additional observations from a re-analysis of the deposited data

How the results depend on the processing

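Of 37 alternatives, 27 were labelled as the same, 9 as moved and 1 as weaker. The 9 were ratios that left the interval of their counting error. The 1 was the count past the RefSeq transcript end. Counts of intervals have no such error range here, and the label covers sizeable changes in them. The binomial test, for example, passed 59 of 59 at an expected share of 0.5 and 44 of 59 at that of the whole list. The number of histone intervals past 10-fold, 44 of 59, was 55 at 5-fold, 38 at 20-fold and 41 with IgG reads scaled by 1.636. The shares over all listed intervals at these settings were not computed. With the floor of 3 IgG reads, the median fold was 8 over all listed intervals and 29.7 over the histone intervals. By the binomial test against the share that IP reads take over the whole list, 44 of 59 passed (74.6%), against 25.3% of all listed intervals. This test passes more easily with more reads, and histone intervals had more IP reads (median 158 against 74). As the median of the intervals with an IgG floor of 3 reads, the ratio was 7 in H1, 30.8 in H2A, 7.13 in H2B and 48.3 in H4. The floor sets the value of most H2A and H4 intervals, which have under 3 IgG reads, but of no H1 interval. Without the interval with the most IgG reads, it was 9.84 in H1 (the same without the most IP reads, since both are Hist1h1e), 477 in H2A, 6.82 in H2B without Hist1h2bb, and 14.9 for chromosome 13 without Hist1h1e. The count past the RefSeq transcript end, 26, was 9 with the furthest end of all transcripts, which holds more annotated ends.

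No paired analysis was possible because the table holds 1 column for the IP and 1 for the IgG, so the numbers 1 and 2 of the libraries cannot be used; for the same reason no library was left out in turn. The search for the histone stem-loop and the comparison of proteins were not run, since no genome or protein table was used here. IgG numbers of 0 to 4 reads in most H2A, H3 and H4 intervals bound their single ratios only loosely. Sums over a class have less counting error, if each read was counted once.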
